A study of Mus musculus with 32 samples.

Results

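Fatty acids are burned in mitochondria and in peroxisomes, and the genes of both routes were followed here in kidneys from a mouse model of polycystic kidney disease (PKD). The set held 43 genes, picked by symbol for their place in fatty acid oxidation, with earlier results of these data known. It comprised 19 mitochondrial members, 14 peroxisomal members, 5 members whose products work in or have been placed in both compartments, and 5 members for supply, regulation and ketone body use. The deposited count table listed 53700 genes. All 43 members were found in it, and 41 of them were among the 13961 genes that passed the filter on low counts and were tested.

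Whole-kidney RNA was sequenced from 32 male C57BL/6 mice of the iKspCre-Pkd1del line, which carries loxP sites around exons 2 to 11 of Pkd1 and a tamoxifen-inducible Cre driven by the kidney-specific cadherin promoter of tubule cells. In the PKD group (12 mice), tamoxifen at 150 mg/kg on postnatal days 18 and 19 deleted Pkd1, and the mice ate normal chow. The PKD + Salsalate group (12 mice) was treated in the same way and ate chow with 2.5 g/kg salsalate, a prodrug of salicylate, from day 81 for 2 weeks. The authors selected the 12 mice of each PKD group from a larger number for a similarly mild cystic phenotype. The selection used kidney weight relative to body weight, measured after treatment, which limits comparisons with both PKD groups. The wildtype group (8 mice) received no tamoxifen. The age given for the mice was 95 days in both PKD groups and 109 days in the wildtype group, whereas the description of the experiment has all mice killed at day 95. Pkd1 loss and tamoxifen, and age if the labels hold, cannot be told apart in a comparison with wildtype. Pkd1 was deleted in tubule cells only, and the deleted exons are a part of the transcript, so its whole-gene count does not check the labels. It ranged from 53.1 to 86.4 CPM (counts scaled to the size of each library by TMM factors) in wildtype, from 70.7 to 113 CPM in PKD and from 67.4 to 120 CPM in PKD + Salsalate kidneys.

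Long-chain fatty acids cannot cross the inner mitochondrial membrane as coenzyme A esters. The carnitine shuttle carries them in, after which dehydrogenation, hydration, a further dehydrogenation and thiolysis shorten the chain by steps and pass electrons to the respiratory chain through electron transfer flavoprotein. Peroxisomes shorten very-long-chain fatty acids, bile acid precursors and, after alpha oxidation, branched chains, using oxidases that make hydrogen peroxide in place of the dehydrogenases. The proximal tubule depends on these routes for most of its energy, and the nuclear receptor PPAR alpha is a main activator of their genes. Bulk RNA was measured, so fewer cells of a type and less RNA per cell cannot be told apart.

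Between 11193100 and 109808000 reads per kidney were assigned to genes (median 17242800), and each tested member had between 53 and 416077 reads in a kidney. The names of 5 wildtype libraries (replicates 1 to 5) end in R, and those of the other 3 wildtype libraries (replicates 6 to 8) and of all PKD libraries do not; what the letter stands for is not given in the sources used here. They are called the R set and the non-R set of wildtype libraries here. The sets stood apart. The R set had 13.2 to 15.7% of their reads outside annotated genes, against 7.60 to 9.77% in the non-R set. Of all genes tested, 48.1% differed between the sets at an adjusted p under 0.05 in edgeR's quasi-likelihood test, the threshold used throughout, and 23.7% were higher in the non-R set. PKD is therefore compared with all 8 wildtype kidneys and with each set. In PKD replicate 10 the summed level of 15 liver markers was 6912 CPM, against at most 1947 CPM in every other kidney. Defining markers of the proximal tubule were present in every group, and their sum (13 markers) ranged from 19056 to 37225 CPM over the kidneys, so the tissue matched its label. The sum of 8 muscle markers was at most 4.47 CPM. That of 8 adipose tissue markers varied widely, from 5.05 to 448 CPM over the kidneys. Of the 7 adipose markers tested, 1 was called lower in PKD against all wildtype kidneys (median log2 fold change -1.01). The part of adipose content in the members' values was not tested.

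The members covered a wide range of levels, compared here as CPM per kilobase of merged exon (which includes exons of rarely used transcripts and so understates genes with many of them). In PKD kidneys Slc27a2, a very-long-chain acyl-CoA synthetase and fatty acid transporter, was highest with a mean of 692 CPM per kilobase. Scp2, which carries the peroxisomal sterol carrier thiolase, followed at 131, Ehhadh, the L-bifunctional enzyme of peroxisomes, at 118, Acaa1b, a peroxisomal thiolase, at 112 and Acadm, the medium-chain acyl-CoA dehydrogenase, at 99.9 CPM per kilobase. Ppara itself was near the bottom at 3.67 CPM per kilobase. Acaa1a and Acaa1b are close paralogs and their reads may have been shared between them or left out. Cpt1b, the muscle form of carnitine palmitoyltransferase I, lay between 0 and 0.681 CPM (0 to 32 reads) in every kidney of every group and was not tested. Hacl1, the lyase of peroxisomal alpha oxidation, lay between 0.590 and 1.99 CPM (10 to 118 reads) and was not tested either; 24.7% of its exon bases are shared with another gene on its strand in the annotation used here.

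**Figure D1:**
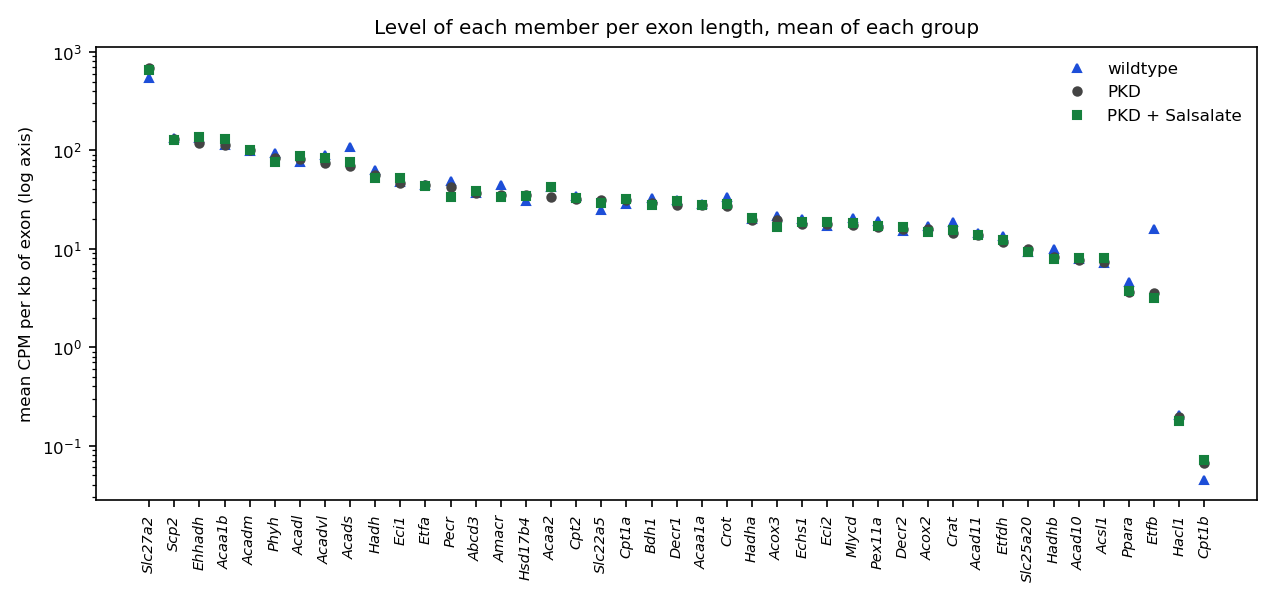
Mean level of each of the 43 members in CPM per kilobase of exon (vertical log axis) in wildtype (triangles, n = 8), PKD (circles, n = 12) and PKD + Salsalate (squares, n = 12) kidneys, ordered by the PKD mean. Slc27a2 stood at 692 CPM per kilobase in PKD, and Hacl1 and Cpt1b were the lowest.

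In PKD against all 8 wildtype kidneys, 12 of the 41 members were lower and 1 was higher. That is 31.7% of the members, beside 49.1% of all genes tested (25.0% lower and 24.1% higher), and 29.3% of the members were lower. Their median log2 fold change was -0.11, and that of all genes was -0.01. By compartment, 6 of 18 mitochondrial members were lower (median -0.12), 2 of 13 peroxisomal members (median -0.11) and 3 of 5 members of both compartments (median -0.23). Of the 5 members for supply and regulation, 1 was lower and 1 was higher (median 0.02).

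These values depended on the set of wildtype libraries. Against the R set, 22 members were called, 12 higher and 10 lower, with a median of 0.05; of all genes, 59.8% were called (29.8% higher and 29.9% lower). Against the non-R set, 24 members were called and all 24 were lower, with a median of -0.34 and a negative fold change for every member tested; of all genes, 40.5% were called (18.9% lower and 21.6% higher). Between the wildtype sets, 24 members were higher in the non-R set and 1, Etfb, was lower, with a median of 0.41. The summed proximal tubule markers also differed between the sets, with a median of 24570 CPM in the R set (19105 to 34527), 34607 CPM in the non-R set (32520 to 37225), 25893 CPM in PKD (24006 to 30879) and 26435 CPM in PKD + Salsalate kidneys (19056 to 31325). The median log2 fold change of the 13 markers was 0.21 in PKD against the R set and -0.47 against the non-R set. Of the 13, Miox, Slc13a3 and Slc7a13 were called lower in PKD against both sets and none was called higher. Another 3 (Aqp1, Slc22a6 and Slc34a1) were called in opposite directions. The part of tubule content in the members' values was not tested.

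**Figure D2:**
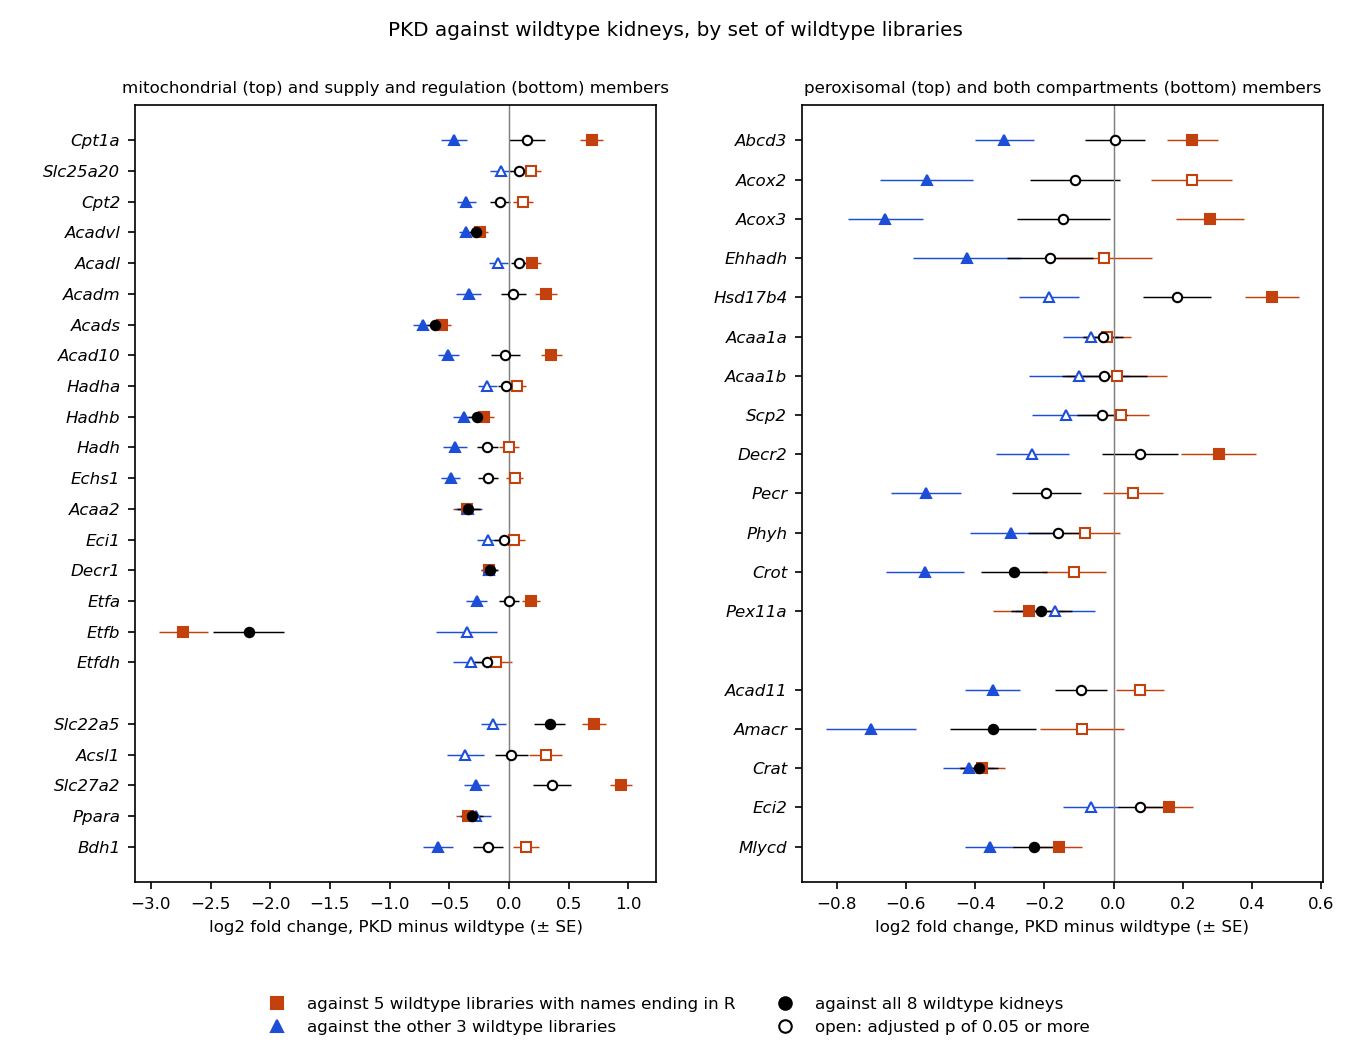
Log2 fold change in PKD against wildtype (horizontal axis, bars ± SE) for the 41 members tested, against all 8 wildtype kidneys (circles), the 5 libraries ending in R (squares) and the other 3 (triangles); filled symbols have an adjusted p under 0.05. Every triangle lies left of 0, and Acads, Acadvl, Hadhb, Acaa2, Crat and Mlycd are filled and left of 0 against both sets.

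Called lower in PKD against each set on its own were 6 members, namely Acads, Acadvl, Hadhb and Acaa2 of the mitochondria and Crat and Mlycd of both compartments. They make up 14.6% of the members, beside 8.07% of all genes. No peroxisomal member was among them. No member was called higher against both sets, beside 11.4% of all genes. A further 7 members (17.1%, beside 6.17% of all genes) were called in opposite directions: Cpt1a, Acadm, Acad10, Etfa, Abcd3, Acox3 and Slc27a2 were higher in PKD against the R set and lower against the non-R set.

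RefSeq promoter windows (250 bases before to 50 after the start, build GRCm38.p6) were matched by symbol for 37 of the 43 members. The last 150 bases before the start are shown, 5′ to 3′ on the strand of the gene. They are given for the 4 of those 6 members that have a window. Shared control of these genes was not tested. Capitals mark the letters CCGCCC (GC box) or AGGTCA (the element bound by PPAR, RXR and ERR nuclear receptors), on either strand.
Acads (chr5:115119347-115119496, minus strand): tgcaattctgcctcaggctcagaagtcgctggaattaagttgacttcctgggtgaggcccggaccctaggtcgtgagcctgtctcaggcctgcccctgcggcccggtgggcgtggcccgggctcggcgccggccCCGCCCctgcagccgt
Acadvl (chr11:70015429-70015578, minus strand): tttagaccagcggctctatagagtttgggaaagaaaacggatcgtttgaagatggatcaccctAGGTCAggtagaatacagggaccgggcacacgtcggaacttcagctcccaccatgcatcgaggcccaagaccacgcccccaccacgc
Hadhb (chr5:30155103-30155252, plus strand): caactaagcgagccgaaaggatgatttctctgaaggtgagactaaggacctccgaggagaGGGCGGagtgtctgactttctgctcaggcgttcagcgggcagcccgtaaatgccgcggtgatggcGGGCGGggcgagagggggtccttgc
Mlycd (chr8:119394744-119394893, plus strand): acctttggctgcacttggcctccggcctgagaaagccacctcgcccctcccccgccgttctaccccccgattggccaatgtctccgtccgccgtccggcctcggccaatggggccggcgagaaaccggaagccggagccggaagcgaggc
The windows held 55.3 to 70.0% G and C. Over whole windows, the GC box was found in 28 of 37 members (75.7%), beside 38.2% of 27025 genes with a window. Unlike most members, many of those genes failed the filter on low counts, and the share among tested genes was not measured. The AGGTCA element was found in 7 members (18.9%: Acadm, Acadvl, Cpt1a, Echs1, Phyh, Scp2 and Slc27a2), beside 18.1% of all genes. An exact pair of these elements in the same direction with 1 base between them, a form bound by PPAR alpha with RXR, was found in no member. Only 0.0481% of all genes had such a pair, too few for its absence from 37 members to say anything about them. Inexact pairs and sites outside the windows were not searched. These are matches of letters and not measured binding.

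Of the carnitine shuttle, Cpt1a, the rate-controlling outer membrane step, was chosen for its values by kidney after they had been seen. It had 191, 225 and 551 CPM (lowest, median and highest) in wildtype, 250.4, 335 and 468 CPM in PKD and 306, 340 and 410 CPM in PKD + Salsalate kidneys. All 5 libraries of the R set lay at or below 233 CPM, under every PKD kidney, and the non-R set at or above 429.7 CPM. Cpt1a was thus 0.69 ± 0.09 (SE) higher in PKD against the R set on the log2 scale (adjusted p = 2.68e-07), with -0.46 ± 0.11 against the non-R set (adjusted p = 0.00154) and 0.15 ± 0.15 against all 8 kidneys (adjusted p = 0.427). Cpt2, the inner membrane step, had -0.08 (adjusted p = 0.482), and Slc25a20, the carnitine-acylcarnitine carrier of the inner membrane, had 0.09 (adjusted p = 0.382). Slc22a5, the plasma membrane carnitine transporter OCTN2, was the member called higher in PKD. It had 97.2, 156 and 270 CPM in wildtype and 174, 222 and 261 CPM in PKD kidneys, with a log2 fold change of 0.34 ± 0.13 (adjusted p = 0.0252). No PKD kidney lay under the wildtype median, but against the non-R set the value was -0.13 (adjusted p = 0.318), and it was no longer called without wildtype replicate 2, 3, 4 or 5 (0.25 to 0.31) or with only the PKD and wildtype kidneys in the fit (0.32, adjusted p = 0.0879).

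Among the acyl-CoA dehydrogenases, Acads, which acts on short chains, had the smallest adjusted p of all members. It lies at chr5:115248357-115257405 on the minus strand (GRCm39). It had 264, 343 and 376 CPM in wildtype, 186, 218 and 244 CPM in PKD and 174, 244 and 260.0 CPM in PKD + Salsalate kidneys. All 12 PKD kidneys lay under the lowest wildtype kidney, and it was the only member tested whose PKD and wildtype kidneys did not overlap (1 of 41, beside 7.28% of all genes in either direction and 2.07% with PKD lower). The log2 fold change was -0.62 ± 0.07 (adjusted p = 8.11e-09), with -0.56 against the R set (adjusted p = 4.80e-07) and -0.72 against the non-R set (adjusted p = 1.49e-07). Acadvl (chr11:69900853-69906270), the membrane-bound enzyme for very long chains, had 289.6, 361 and 397 CPM in wildtype, 279, 292 and 318 CPM in PKD and 277, 324 and 369 CPM in PKD + Salsalate kidneys. All 12 PKD kidneys lay under the wildtype median and 6 lay under the lowest wildtype kidney. Acadvl had a log2 fold change of -0.28 ± 0.05 (adjusted p = 7.59e-05), with -0.24 against the R set and -0.36 against the non-R set (adjusted p = 0.00109 and 6.49e-05).

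The other dehydrogenases did not pass the test against all 8 wildtype kidneys. Acadm had a log2 fold change of 0.04 (adjusted p = 0.799), with 0.31 against the R set and -0.34 against the non-R set (adjusted p = 0.00433 and 0.0106); pairs of values against the sets follow that order from here on. Acadl, for long chains, had 0.09 (adjusted p = 0.312), and Acad10 had -0.03 (adjusted p = 0.848), with 0.36 and -0.51 against the sets. Acad11, placed in both compartments, had -0.09 (adjusted p = 0.311).

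In the later steps of the mitochondrial spiral, Hadhb (chr5:30359204-30389997), the thiolase subunit of the trifunctional protein, had 125, 153 and 186 CPM in wildtype, 109, 124 and 158 CPM in PKD and 113, 124 and 144 CPM in PKD + Salsalate kidneys. The groups overlapped, with 7 of 12 PKD kidneys under the lowest wildtype kidney. Hadhb was called lower at -0.27 ± 0.08 on the log2 scale (adjusted p = 0.00388), with -0.21 and -0.37 against the sets (adjusted p = 0.0374 and 0.00211). Hadha, the other subunit, had -0.03 (adjusted p = 0.779); the difference between the subunits was not tested. Acaa2 (chr18:74911948-74953492), the thiolase for shorter chains, had 212, 265 and 419 CPM in wildtype, 198, 214 and 243 CPM in PKD and 226, 266 and 405 CPM in PKD + Salsalate kidneys. All 12 PKD kidneys lay under the wildtype median, and the highest wildtype value came from replicate 1, with the next at 291 CPM. The log2 fold change was -0.34 ± 0.10 (adjusted p = 0.00435), with -0.35 and -0.34 against the sets (adjusted p = 0.00994 and 0.0144). Hadh and Echs1, the hydroxyacyl-CoA dehydrogenase and the short-chain hydratase, had -0.18 (adjusted p = 0.0892) and -0.17 (adjusted p = 0.0833).

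**Figure D3:**
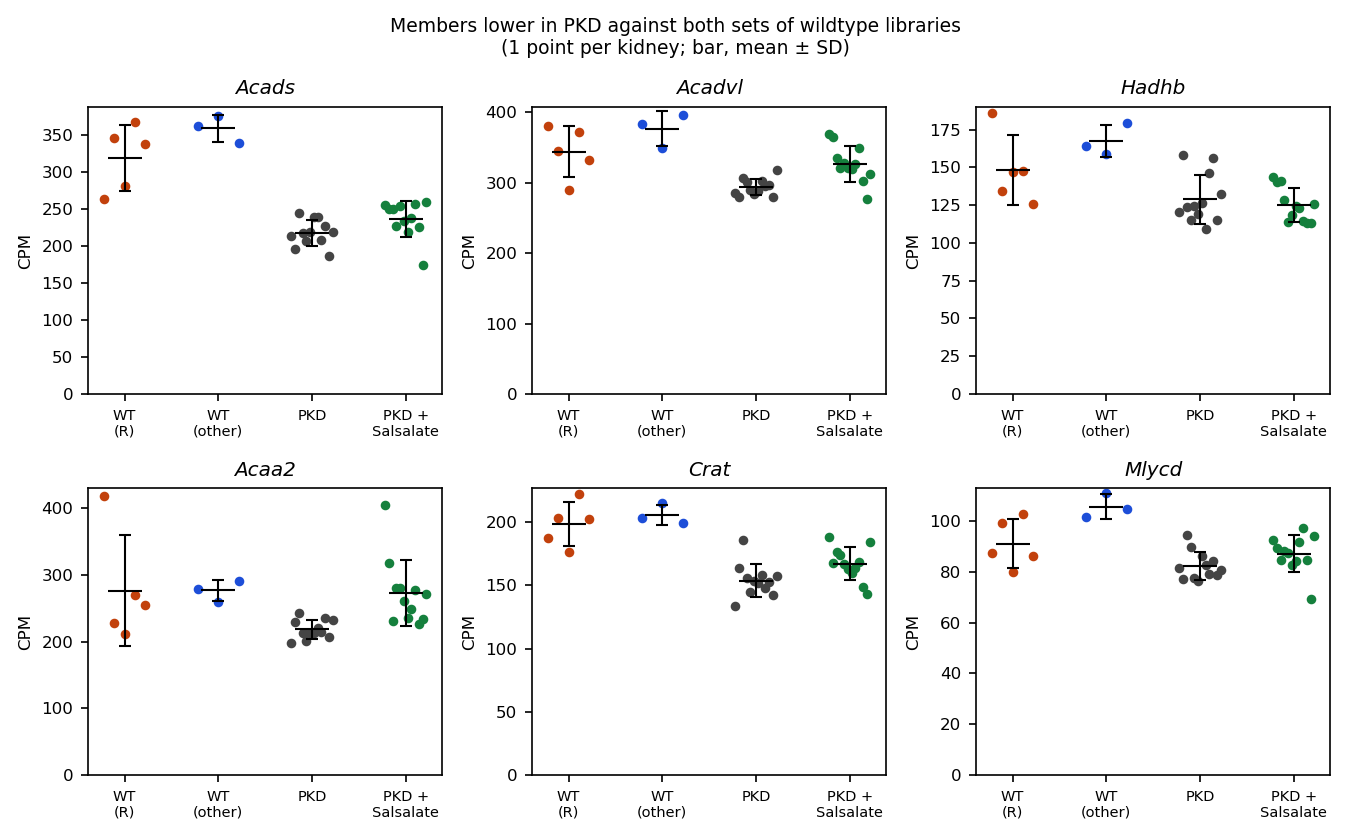
CPM (vertical axis) in each kidney (points) with the mean ± SD (bars) for the 6 members lower in PKD against both wildtype sets; WT (R), 5 libraries with names ending in R; WT (other), the remaining 3; PKD and PKD + Salsalate, 12 kidneys each. Acads is the panel in which every PKD kidney, at most 244 CPM, lies under every wildtype kidney, at least 264 CPM.

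For unsaturated chains, Decr1, the mitochondrial dienoyl-CoA reductase, had 179.7, 198 and 256 CPM in wildtype, 162, 178 and 201 CPM in PKD and 175, 198 and 229 CPM in PKD + Salsalate kidneys. The groups overlapped, and the log2 fold change of -0.16 ± 0.06 (adjusted p = 0.0313) was no longer called without wildtype replicate 1 (-0.10) or without wildtype replicate 4 (-0.15). Eci1, the mitochondrial enoyl-CoA isomerase, had 106, 143 and 171 CPM in wildtype, 109.7, 134 and 152 CPM in PKD and 121, 147 and 179 CPM in PKD + Salsalate kidneys, with -0.04 in PKD (adjusted p = 0.726). Eci2, the isomerase of both compartments, had 0.08 (adjusted p = 0.333).

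Of the electron transfer genes, Etfb, the beta subunit of electron transfer flavoprotein, had the largest fold change of any member tested, and its level is uncertain. In the annotation used here it shares 43.6% of its exon bases with other genes on its strand. The authors counted on an earlier Ensembl annotation, which may differ at this gene; where exons are shared there, reads in them are set aside as ambiguous. It had 19.5 to 48.9 CPM in the R set and 5.90 to 8.78 CPM in the non-R set, 3.23, 5.10 and 11.7 CPM in PKD and 2.92, 4.81 and 8.04 CPM in PKD + Salsalate kidneys. Thus the R set stood above all other kidneys. The log2 fold change was -2.18 ± 0.30 against all wildtype kidneys (adjusted p = 3.58e-07) but -0.36 ± 0.26 against the non-R set (adjusted p = 0.28). Its partner Etfa had 0.00 (adjusted p = 0.986), and Etfdh, which hands the electrons to ubiquinone, had -0.18 (adjusted p = 0.168).

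Among the peroxisomal importer and oxidases, Abcd3, the transporter PMP70, had a log2 fold change of 0.00 in PKD (adjusted p = 0.974), with 0.23 and -0.32 against the sets (adjusted p = 0.00809 and 0.0039). Acox3, the oxidase for branched chains, was likewise given by kidney after its values had been seen. It had 151, 217 and 437 CPM in wildtype, 186, 228 and 274 CPM in PKD and 167, 188 and 249 CPM in PKD + Salsalate kidneys. The non-R set, at or above 311 CPM, stood above every other kidney. Acox3 had 0.28 and -0.66 against the sets (adjusted p = 0.0152 and 2.08e-05) and -0.15 against all 8 (adjusted p = 0.382). Acox2, the oxidase for bile acid precursors, had -0.11 (adjusted p = 0.492).

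In peroxisomal chain shortening, Ehhadh had 297, 415 and 573 CPM in wildtype, 283, 337 and 517 CPM in PKD and 323, 393 and 570.0 CPM in PKD + Salsalate kidneys, with a log2 fold change of -0.18 ± 0.12 in PKD (adjusted p = 0.223). Ehhadh was called lower against the non-R set (-0.42, adjusted p = 0.0301) but not against the R set. Hsd17b4, the D-bifunctional enzyme, had 113, 149 and 228 CPM in wildtype, 155, 179.9 and 218 CPM in PKD and 164, 182 and 212 CPM in PKD + Salsalate kidneys. No PKD kidney lay under the wildtype median. Hsd17b4 had a log2 fold change of 0.18 ± 0.10 (adjusted p = 0.118), with 0.46 and -0.19 against the sets (adjusted p = 1.13e-05 and 0.0821). It was called higher without wildtype replicate 6 (0.24), 7 (0.27) or 8 (0.24). The thiolases Acaa1a, Acaa1b and Scp2 had -0.03, -0.03 and -0.03 (adjusted p = 0.693, 0.876 and 0.719), and Decr2, the peroxisomal dienoyl-CoA reductase, had 0.08 (adjusted p = 0.577).

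Pecr, the peroxisomal trans-2-enoyl-CoA reductase, had 258, 309.9 and 476 CPM in wildtype, 257, 306 and 406 CPM in PKD and 192, 242 and 290.1 CPM in PKD + Salsalate kidneys. In PKD the groups overlapped (log2 fold change -0.19 ± 0.10, adjusted p = 0.101). The value was called lower without wildtype replicate 2 (-0.25) and without PKD replicate 10 (-0.24). Against the non-R set Pecr was also called lower (-0.54, adjusted p = 9.68e-05), but not against the R set.

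Of the remaining peroxisomal members, Phyh, the hydroxylase that opens alpha oxidation of phytanic acid, had 480.2, 569.8 and 629 CPM in wildtype, 405, 488 and 717 CPM in PKD and 363, 444 and 548 CPM in PKD + Salsalate kidneys. Its log2 fold change was -0.16 ± 0.09 (adjusted p = 0.123), and -0.22 without PKD replicate 10, when it was called. Phyh was also called lower against the non-R set (-0.30, adjusted p = 0.0437), but not against the R set. Crot, which makes carnitine esters of medium chains for export to mitochondria, had 245, 311 and 447 CPM in wildtype, 236, 254 and 353 CPM in PKD and 234, 259.8 and 363 CPM in PKD + Salsalate kidneys. The groups overlapped, and the log2 fold change was -0.29 ± 0.10 (adjusted p = 0.0131), which was not called without wildtype replicate 7 (-0.20) or against the R set (-0.11, adjusted p = 0.293). Pex11a, a peroxisome division protein, had 50.2, 58.6 and 78.4 CPM in wildtype, 43.4, 53.4 and 69.4 CPM in PKD and 42.5, 52.4 and 64.5 CPM in PKD + Salsalate kidneys. A log2 fold change of -0.21 ± 0.09 (adjusted p = 0.048) stood at the threshold and was lost in 18 of 32 fits that left out a kidney.

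Of the members of both compartments, Crat (chr2:30289300-30306340), carnitine acetyltransferase, which buffers acetyl-CoA as acetylcarnitine, had 177, 203 and 222 CPM in wildtype, 133, 153 and 185 CPM in PKD and 143, 167 and 188 CPM in PKD + Salsalate kidneys. In PKD, 11 of 12 kidneys lay under the lowest wildtype kidney. The log2 fold change was -0.39 ± 0.06 (adjusted p = 7.90e-07), with -0.38 and -0.42 against the sets (adjusted p = 1.15e-05 and 4.64e-05). Mlycd (chr8:120121303-120138492), malonyl-CoA decarboxylase, which removes the inhibitor of Cpt1, had 79.7, 100.4 and 111 CPM in wildtype, 76.4, 81.02 and 94.3 CPM in PKD and 69.3, 87.8 and 97.3 CPM in PKD + Salsalate kidneys. All 12 PKD kidneys lay under the wildtype median. Mlycd was called lower at -0.23 ± 0.06 (adjusted p = 0.00177), with -0.16 and -0.36 against the sets (adjusted p = 0.0393 and 0.000183). Amacr, the racemase for branched chains, had -0.35 ± 0.12 (adjusted p = 0.0202), which was not called without wildtype replicate 6 (-0.29) or 7 (-0.24) or against the R set (-0.09, adjusted p = 0.531).

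Among the genes of supply, regulation and ketone body use, Slc27a2, given by kidney after its values had been seen, had 1382, 1921 and 4564 CPM in wildtype, 2673, 3213 and 3969 CPM in PKD and 2761, 3031 and 3798 CPM in PKD + Salsalate kidneys. The R set, at most 2004 CPM, lay under all other kidneys. Slc27a2 had 0.94 ± 0.10 against the R set (adjusted p = 1.52e-09), -0.27 ± 0.10 against the non-R set (adjusted p = 0.0354) and 0.36 ± 0.16 against all 8 (adjusted p = 0.0561). Ppara had 22.9, 31.2 and 35.2 CPM in wildtype, 20.4, 23.5 and 29.9 CPM in PKD and 18.1, 23.9 and 31.2 CPM in PKD + Salsalate kidneys. All 12 PKD kidneys lay under the wildtype median. Ppara was called lower at -0.31 ± 0.09 (adjusted p = 0.00645), with -0.34 and -0.28 against the sets (adjusted p = 0.00675 and 0.091). Acsl1, a long-chain acyl-CoA synthetase, and Bdh1, the ketone body dehydrogenase, had 0.02 and -0.18 (adjusted p = 0.912 and 0.243).

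**Figure D4:**
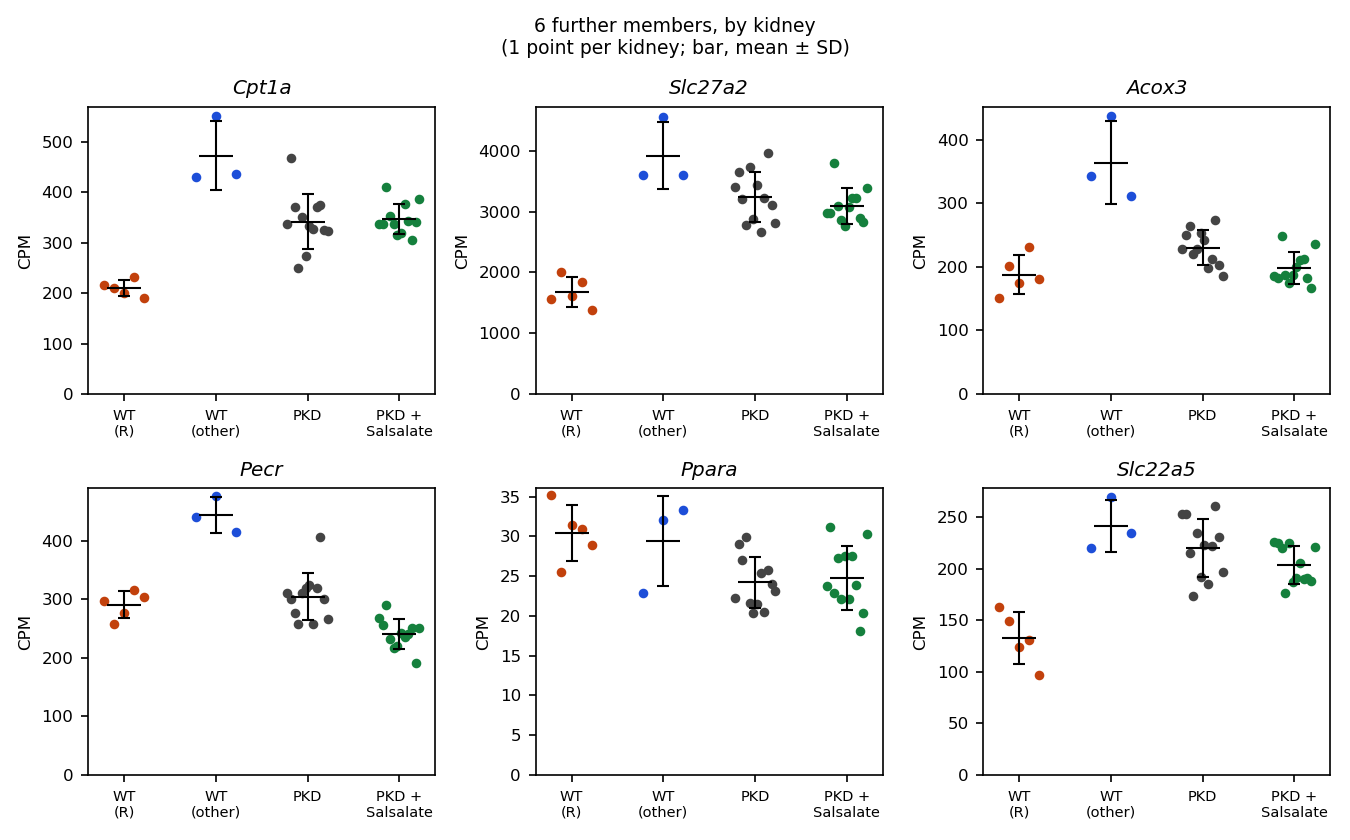
CPM (vertical axis) in each kidney (points) with the mean ± SD (bars) for 6 further members, in the 4 columns WT (R), WT (other), PKD and PKD + Salsalate. For Cpt1a the R set (at most 233 CPM) lie under every PKD kidney and the PKD + Salsalate kidneys overlap the PKD kidneys, whereas for Pecr all 12 PKD + Salsalate kidneys lie under the PKD median of 306 CPM.

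Genes of the same routes that are not members were counted from 3 lists. Of 27 other fatty acid oxidation genes tested, 10 were lower and 2 higher in PKD against all wildtype kidneys (44.4%, near the 49.1% of all genes), and 5 were lower against both sets. The largest changes called were in Acot2, a mitochondrial acyl-CoA thioesterase (-0.71, adjusted p = 0.000335, but -0.02 against the non-R set), Mcat, of mitochondrial fatty acid synthesis (-0.63, adjusted p = 2.72e-09), and Acad12, an acyl-CoA dehydrogenase family member (-0.63, adjusted p = 1.14e-10). Of 15 peroxisome biogenesis genes, 6 were lower and none higher (40.0%), and 1 (Pex6, an ATPase of receptor recycling, -0.36, adjusted p = 0.000323) was lower against both sets; Pex11g and Pex10 had -0.30 and -0.27 (adjusted p = 0.0101 and 0.0158). Of 15 regulators, which include Ppara, 7 were lower and 1 higher (53.3%). Sirt3, the mitochondrial deacetylase, had -0.62 (adjusted p = 4.49e-07), Ppargc1b, a coactivator, had -0.52 (adjusted p = 0.00309) and Lpin1 had -0.39 (adjusted p = 0.00495). Sirt3 was lower against both sets (adjusted p = 6.45e-08 and 0.00496), and Ppargc1b and Lpin1 were not called against the non-R set (adjusted p = 0.396 and 0.432). Other markers moved in the same comparison: all 5 markers of injured tubule were higher in PKD against both sets. So were the 3 of 5 leukocyte markers that were tested (1.16 to 1.57 on the log2 scale). The sum of 7 distal tubule and collecting duct markers was 954 to 1284 CPM in PKD against 1625 to 2008 CPM in wildtype kidneys. Of these 7, 4 were called lower and 1 higher against all wildtype kidneys. Against the R set 4 were lower and 3 higher, and against the non-R set 5 were lower and none higher. The part of these injury, leukocyte and distal markers in the members' values was not tested.

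Salsalate was compared with PKD to ask what 2 weeks of the drug changed within the diseased kidney. No member passed the test (0 of 41, beside 0.580% of all genes) in edgeR's quasi-likelihood test. An unadjusted p under 0.05 was found for 6 members, 5 higher and 1 lower (14.6%), beside 10.3% of all genes, and DESeq2's Wald test called 3 members, beside 1.43% of all genes. The median log2 fold change was 0.03, and that of all genes was -0.01. By compartment, the median was 0.05 for the mitochondrial members (12 of 18 positive) and 0.01 for the peroxisomal members (7 of 13 positive). The 95% interval stayed within 0.5 of 0 on the log2 scale for 39 of 41 members, so larger changes lay outside the intervals for all but Etfb and Pecr. All 5 injured tubule markers had negative fold changes (median -0.29), with none called. All 7 distal tubule and collecting duct markers had positive ones (median 0.14), with none called. Of the 13 proximal tubule markers, 7 were positive and 6 negative. PKD + Salsalate replicate 11 had the highest injured tubule sum (3511 CPM) and the lowest proximal tubule sum (19056 CPM) of all kidneys. The part of these markers in the members' values was not tested.

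Pecr had the smallest p. All 12 PKD + Salsalate kidneys (192 to 290.1 CPM) lay under the PKD median of 306 CPM, though the groups overlapped. Its log2 fold change was -0.33 ± 0.09 (adjusted p = 0.0712, 95% interval -0.51 to -0.16). Acaa2 came next, and here all 12 PKD + Salsalate kidneys (226 to 405 CPM) lay above the PKD median of 214 CPM. Its log2 fold change was 0.32 ± 0.09 (adjusted p = 0.0806, 95% interval 0.15 to 0.49). Acaa2 had -0.02 in PKD + Salsalate against wildtype (adjusted p = 0.878) and -0.34 in PKD against wildtype; these comparisons share kidneys. Acadvl came after these, with 11 of 12 kidneys above the PKD median of 292 CPM and a log2 fold change of 0.15 ± 0.05 (adjusted p = 0.139).

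Decr1 and Eci1 followed, at 0.14 ± 0.05 (adjusted p = 0.314, 11 of 12 kidneys above the PKD median) and 0.18 ± 0.07 (adjusted p = 0.328, 10 of 12 kidneys). Crat had 0.12 ± 0.05 (adjusted p = 0.355), Acads had 0.12 ± 0.06 (adjusted p = 0.536) and Hadhb -0.05 ± 0.07 (adjusted p = 0.891). Cpt1a had 0.02 ± 0.14 (adjusted p = 0.984), Ppara 0.03 ± 0.08 (adjusted p = 0.944) and Slc27a2 -0.07 ± 0.14 (adjusted p = 0.93). The calls near the threshold depended on the samples in the fit. Acaa2 was called without wildtype replicate 1 (0.32) and, with Acadvl (0.18), without PKD + Salsalate replicate 11 (Acaa2 0.35), and Pecr was called without wildtype replicate 7 (-0.33). Leaving out other kidneys moved them the other way in the same test. Without PKD + Salsalate replicate 1 the adjusted p of Acaa2 rose to 0.154. Without PKD + Salsalate replicate 2 that of Acadvl rose to 0.265. With no wildtype kidneys in the edgeR fit, Pecr (adjusted p = 0.011) and Acaa2 (adjusted p = 0.0254) were called. With only the R set as wildtype, Pecr was called (adjusted p = 0.0109). With only the non-R set, Pecr, Acaa2 and Acadvl were called (adjusted p = 0.00801, 0.0166 and 0.0498). None of the genes in the lists of other fatty acid oxidation, peroxisome biogenesis or regulators was called in this comparison; 3 of 27, 0 of 15 and 2 of 15 had an unadjusted p under 0.05, and DESeq2's Wald test called 0 in each list.

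**Figure D5:**
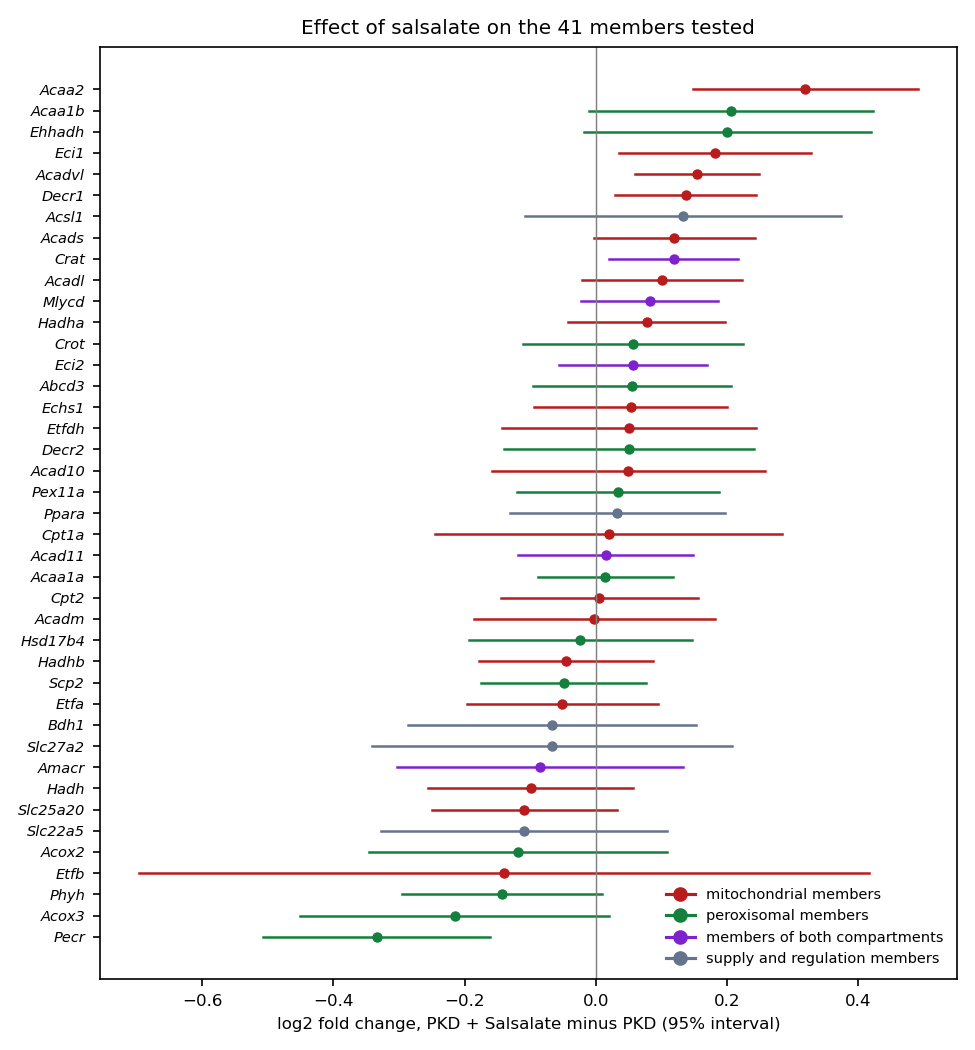
Log2 fold change in PKD + Salsalate against PKD (points) with 95% intervals (lines) for the 41 members tested, coloured by compartment and ordered by value. Acaa2 (0.32) is at the top and Pecr (-0.33) at the bottom; the interval of 6 members lay clear of 0 but no adjusted p was under 0.05.

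In PKD + Salsalate against wildtype, 12 members were lower and 1, Acadl, was higher (31.7%, beside 44.9% of all genes called and 23.2% lower). Against the R set 6 were lower and 12 higher (28.9% and 29.2% of all genes), and against the non-R set 22 were lower and none higher (16.0% of all genes lower). Lower in both PKD groups against all wildtype kidneys were 8 of 41 members, beside 19.8% of all genes, and the comparisons share the wildtype kidneys. Of these 8, Crot lost its call in PKD + Salsalate in 25 of 32 fits that left out a kidney (-0.14 without wildtype replicate 7), and Mlycd in 10. Acads had -0.50 ± 0.07 (adjusted p = 6.77e-07), Crat -0.27 ± 0.06 (adjusted p = 0.00021) and Hadhb -0.31 ± 0.08 (adjusted p = 0.00107), beside -0.62, -0.39 and -0.27 in PKD. Acadvl had -0.12 ± 0.05 (adjusted p = 0.0609). Pecr had -0.53 ± 0.10 (adjusted p = 5.18e-05), Phyh -0.30 ± 0.09 (adjusted p = 0.00479), Hadh -0.28 ± 0.09 (adjusted p = 0.0103) and Acox3 -0.36 ± 0.13 (adjusted p = 0.0277), none of which was called in PKD against wildtype. Against the R set, Phyh had -0.22 (adjusted p = 0.0582), Hadh -0.09 (adjusted p = 0.354) and Acox3 0.07 (adjusted p = 0.561), and these calls were lost. Acadl, at 0.19 ± 0.07 (adjusted p = 0.0283), had 0.013 against the non-R set (adjusted p = 0.917). It also lost its call with these groups alone (adjusted p = 0.0607), with the replicate block (adjusted p = 0.0782), and without wildtype replicate 2, 3 or 5 (0.15 to 0.16) or PKD + Salsalate replicate 3 (0.17).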

How the data were processed

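Kidney RNA was extracted with Trizol, and libraries were made with the NEBNext Ultra II Directional kit. Per the labels and the methods, the authors used bcl2fastq 2.20, FastQC, cutadapt 2.10, STAR 2.7.5a on GRCm39 and HTSeq 0.12.4, which counted reads per gene by strand; the deposited values are raw counts per Ensembl gene. Reads outside genes, ambiguous reads and reads that did not map uniquely were left out here; 73.6 to 83.1% of each kidney's reads were on genes. Symbols were taken from GENCODE vM39 (52610 of 53700 identifiers matched, 1090 did not). Promoter sequences were RefSeq, GRCm38.p6, and the gene coordinates GRCm39.

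Genes with log2 CPM over 1 (prior count 2) in at least 25% of kidneys (8 of 32) were kept, and all 32 kidneys were fitted in edgeR 4.0.16 (R 4.3.3) with TMM factors and the quasi-likelihood F-test, following the study's groups. P-values were adjusted by Benjamini-Hochberg over all 13961 genes, at 0.05. Intervals are 95% from the standard error. Each set of wildtype libraries was also compared in a fit that held no other wildtype kidneys. The fit was tested on simulated data that held no difference between the wildtype sets, so that test does not bear on the split between them. Each sample is a separate mouse. Values are CPM over TMM-scaled libraries; exon lengths are merged exons.

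The members and lists were chosen with earlier results of these data known. Values by kidney are given for the 6 mitochondrial and the 6 peroxisomal members with the smallest adjusted p in PKD against wildtype, the 5 members with the smallest p under salsalate, members called against the main direction, Ppara and members that failed the filter. Crat, Mlycd, Cpt1a, Acox3 and Slc27a2 were added after their values were seen. In the other lists, the 3 largest changes called are named. The regulators Sirt1, Esrra and Rxra, and the proximal tubule markers named by direction, were added outside this rule. Alternatives were DESeq2 1.42.0 (size factors; Wald test), other filters, the groups compared alone, the replicate number as a block, each wildtype set alone, and leaving out each kidney.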

Additional observations from a re-analysis of the deposited data

Results flagged for a closer look

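Among the 8 wildtype kidneys, the only group small enough to be tested this way, 3 of 41 members had a kidney far from the rest by Dixon's criterion, a gap to the nearest kidney, as a share of the group's range, above the 95% critical value. Chance flags about 1 in 20 such groups. Acaa2 had 419 CPM in wildtype replicate 1, with the next kidney at 291 CPM. Decr1 had 256 CPM in the same kidney, with the next at 207 CPM. Acaa1a had 209.8 CPM in wildtype replicate 3, with the next kidney at 249 CPM. Without wildtype replicate 1 the call of Decr1 in PKD against wildtype was lost.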

How the results depend on the processing

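In PKD against wildtype, 13 members were called, with 22 against the R set, 24 against the non-R set, 11 with these groups alone and 10 to 15 when each kidney was left out in turn. Slc22a5 turned from 0.34 to -0.13 with the non-R set only. In PKD + Salsalate against PKD, 0 members were called (81 of all genes), with 3 by DESeq2's Wald test (Pecr lower, Acaa2 and Acadvl higher; 199 of all genes), 2 with these groups alone (196), 1 with the R set (139), 3 with the non-R set (244), 1 without PKD replicate 10 and wildtype replicate 1 together (84, an alternative chosen after seeing the data) and 0 to 2 when each kidney was left out. The members called were Pecr, Acaa2 or Acadvl in each case. In PKD + Salsalate against wildtype, 13 members were called (12 lower), with 18 against the R set (6 lower, 12 higher), 22 against the non-R set (all lower) and 11 to 15 when each kidney was left out; Acox3 turned from -0.36 to 0.069 with the R set. The causes were not tested. With the replicate block, 13, 0 and 10 members were called in the order above. The labels do not say that the numbers pair the mice. Same-numbered samples had correlations of their deviations from -0.55 to 0.47 in PKD against wildtype. In the comparisons, 3 of 8, 2 of 12 and 3 of 8 pairs were over 0.1. The best match had the same number in 3 of 8, 1 of 12 and 0 of 8 pairs. Wildtype deviations include the difference between the sets, so correlations with wildtype cannot settle whether mice were paired. DESeq2's size factors, filterByExpr and no filter kept each count of members within 1.5 times its value. Counting the members of both compartments with the mitochondria or the peroxisomes gave medians of -0.16 and -0.13 in PKD. The wildtype group holds 8 kidneys in 2 sets that differ, which limits every comparison with it, and the levels of Etfb, Cpt1b and Hacl1 are limited by shared exons or low counts.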

Other observations

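Sirt1, a deacetylase that acts on coactivators of these genes, was the only regulator called higher in PKD, with 17.3, 20.0 and 25.6 CPM (lowest, median and highest) in wildtype and 22.4, 25.4 and 27.1 CPM in PKD kidneys (log2 fold change 0.29 ± 0.06, adjusted p = 8.11e-05). Esrra and Rxra, nuclear receptors that act with or beside PPAR alpha, were lower against both wildtype sets, with -0.30 (adjusted p = 0.00059) and -0.33 (adjusted p = 0.000871) against all wildtype kidneys. Of all genes tested, 8.07% were called lower against both sets.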
